A study of Mus musculus with 10 samples.

Results

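The 7 genes described here encode acute phase proteins, namely the serum amyloid A proteins Saa1, Saa2 and Saa3, haptoglobin (Hp), orosomucoid 1 (Orm1), ceruloplasmin (Cp) and pentraxin 3 (Ptx3). They were chosen by name, with earlier results of these data known, and all 7 were found among the 24358 gene symbols of the deposited tables. The values come from RNA sequencing of 10 full-thickness dorsal skin biopsies of 5 mice on a C57Bl/6 background. All 5 mice carry the IL-17C transgene and none is transgene-free, so uninvolved skin is also transgenic. Per the labels, 2 mice are IL-17C+KO (mice 2392 and 2465), which the series title gives as an IL-6 knockout, and 3 are IL-17C+ (mice 2237, 2275 and 2296). Each mouse gave 1 lesional and 1 uninvolved biopsy, which makes 2 IL-17C+KO lesional, 2 IL-17C+KO uninvolved, 3 IL-17C+ lesional and 3 IL-17C+ uninvolved libraries. The mice were 10 or 14 weeks old. The sources used here do not say which mouse had which age, which promoter drives the transgene or what kind of Il6 allele the knockout is.

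The acute phase response is the shift in secreted proteins that follows infection or tissue injury. It is best known from the liver, where IL-6, IL-1 and related cytokines act through the transcription factors STAT3, C/EBP and NF-κB. Saa1 and Saa2 are the main circulating serum amyloid A proteins of the mouse, whereas Saa3 is made largely outside the liver, in macrophages, fat cells and epithelia. Haptoglobin binds free haemoglobin, ceruloplasmin is a copper-carrying ferroxidase, orosomucoid is an abundant plasma lipocalin, and pentraxin 3 is a soluble pattern recognition molecule made locally by myeloid and stromal cells.

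The gene named as knocked out went against its label. In the libraries labelled IL-17C+KO, Il6 had 315 and 300 counts for lesional skin and 71 and 55 for uninvolved skin. It had 26, 18 and 69 counts in IL-17C+ lesional skin and 9, 4 and 6 in IL-17C+ uninvolved skin (mice 2237, 2275 and 2296). Counts over a whole gene do not show which exons were read. Libraries are therefore named as labelled, and a direction between genotypes is one between labels. Libraries held 21056850 to 31072491 counts, and 3 counts correspond to 0.0965 to 0.142 CPM (counts scaled to the library total; all other CPM values are also scaled by TMM). The transgene Il17c was read in all 10 libraries, with 13931 to 367725 counts. It had 2346 and 10878 CPM in IL-17C+KO lesional skin, against 1900 and 535 CPM in uninvolved skin (mice 2392 and 2465). In IL-17C+ mice it had 10593, 10852 and 12467 CPM in lesional skin, against 15171, 1416 and 5395 CPM in uninvolved skin. Mouse 2237 was thus the only mouse with less in lesional skin. The part of the transgene level in the results below was not tested.

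The paired biopsies address what sets lesional skin apart from the uninvolved skin of a mouse. Saa3 stood higher in lesional skin of all 5 mice, by 8.08 and 8.09 log2 units in the mice labelled IL-17C+KO and by 0.79 to 6.25 in IL-17C+ mice. Saa2 and Ptx3 were also higher in 5 of 5 mice, Saa1 and Hp in 4 of 5, and Cp in 3 of 5. Orm1, which is known from the liver as a positive acute phase protein, was lower in lesional skin of 5 of 5 mice. Of all 16083 genes tested, 9.12% were higher in every mouse and 9.75% lower in every mouse. The differences of Saa1, Saa2, Saa3 and Hp were smallest in mouse 2237. The samples are whole skin, so fewer cells of a type and less RNA per cell cannot be told apart.

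**Figure D1:**
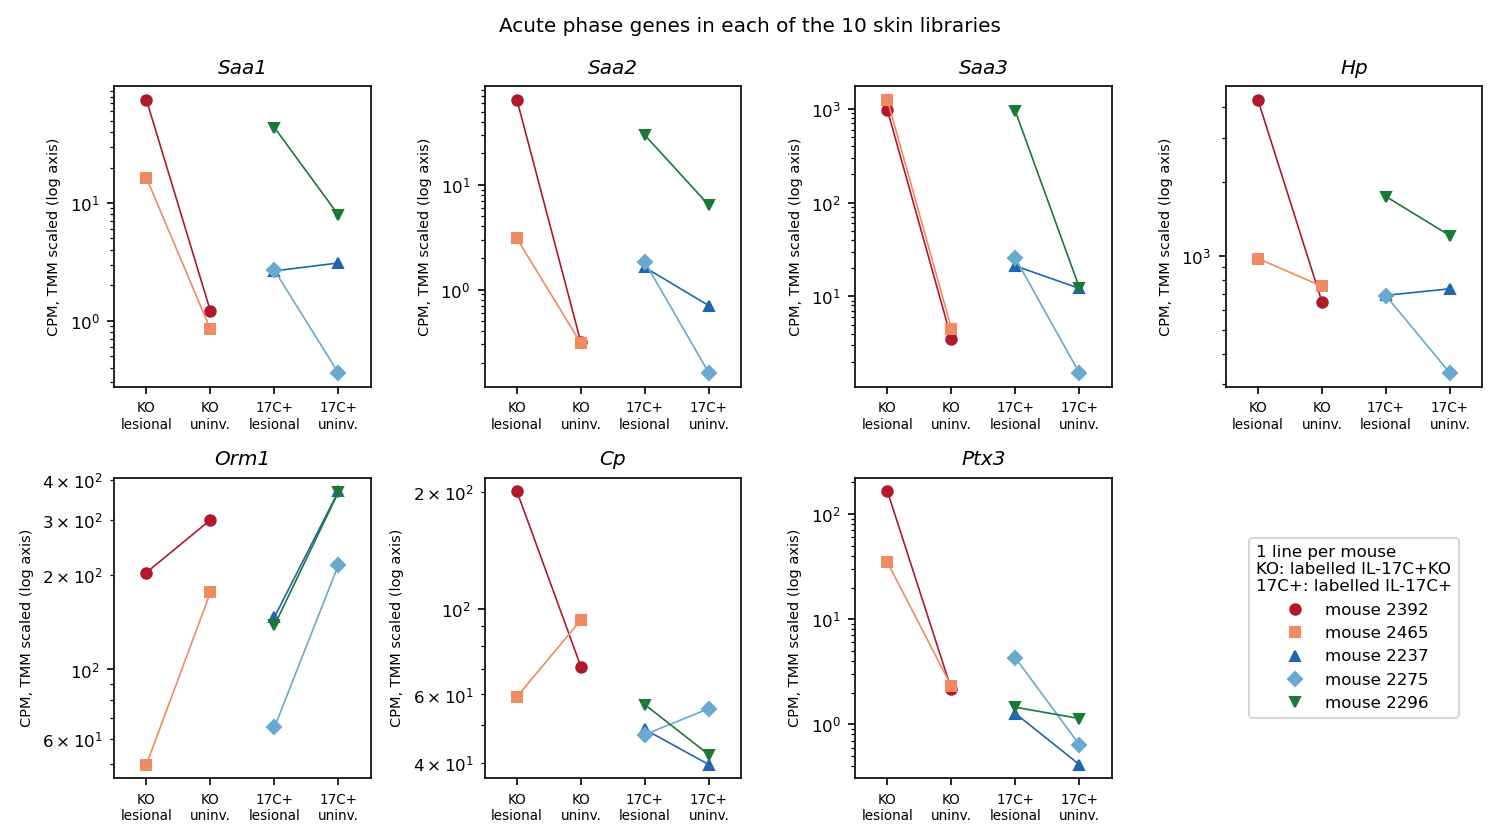
TMM-scaled CPM (log axis) of each gene in each of the 10 libraries, with 1 line joining the lesional and uninvolved biopsies of a mouse. Saa3 lies at 942 to 1257 CPM in 3 lesional libraries and at 21.1 and 25.4 CPM in the other lesional ones, and Orm1 is lower in lesional skin of every mouse.

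None of the 7 genes passed a false discovery rate (FDR, Benjamini-Hochberg over all genes tested) of 0.05 in edgeR's quasi-likelihood test with the mouse as a block. In the mice labelled IL-17C+KO 0.0124% of 16083 genes passed, in IL-17C+ mice 0%, and over all 5 mice 0.0497%. At an unadjusted p under 0.05, Saa1, Saa2, Saa3 and Ptx3 were higher and Orm1 lower in each of these 3 comparisons. The share of all genes at that level was 6.16% higher and 7.31% lower in IL-17C+KO mice, 3.54% and 2.87% in IL-17C+ mice, and 10.1% and 11.5% over all 5 mice. The median log2 difference over the 7 genes was 5.09, 1.57 and 3.08 in these comparisons, against 0.00, -0.02 and -0.01 over all genes tested. DESeq2 called Saa1, Saa2, Saa3 and Ptx3 in IL-17C+KO mice, Saa3 and Orm1 in IL-17C+ mice, and these 5 genes over all 5 mice. Of all genes with an adjusted p, DESeq2 called 7.09%, 1.57% and 12.7% in these comparisons.

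The serum amyloid A genes sit together on chromosome 7 (GRCm38). Saa3 spans chr7:46711998-46715700 on the minus strand, Saa1 chr7:46740497-46742980 on the minus strand and Saa2 chr7:46751790-46754313 on the plus strand. Saa3 had 979 and 1257 CPM in IL-17C+KO lesional skin (mice 2392 and 2465), against 3.53 and 4.53 CPM in uninvolved skin of the same mice. In IL-17C+ mice it had 21.1, 25.4 and 942 CPM in lesional skin, against 12.1, 1.51 and 12.3 CPM in uninvolved skin (mice 2237, 2275 and 2296). The 5 lesional libraries all lay above the 5 uninvolved ones, which 2.98% of all genes showed (4.27% showed the opposite, none of the 7 among them), and within IL-17C+ lesional skin mouse 2296 stood far above the other two. The counts behind the extremes were 25972 against 79 in mouse 2392, a ratio per total count of 305.9 (exact 95% counting interval 245.3 to 386.4), and 701 against 294 in mouse 2237, a ratio of 2.03 (1.76 to 2.33). These intervals cover counting error only.

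The fitted lesional difference of Saa3 was 8.12 ± 1.44 log2 units (SE) in the 2 IL-17C+KO mice, with an edgeR FDR of 0.193. It was 3.80 ± 1.14 in the 3 IL-17C+ mice (edgeR FDR 0.677) and 5.82 ± 1.39 over all 5 mice (edgeR FDR 0.108). Over all 5 mice it passed the edgeR FDR once mouse 2237 was left out (6.75, FDR 0.0254) and without the mouse block (6.35, FDR 0.0368). Under these settings 7.84% and 5.54% of all genes passed, against 0.0497% with all mice and the block. Without mouse 2237 the IL-17C+ difference was 5.21, and without mouse 2296 it was 2.40. By group, Saa3 averaged 1118 ± 197 CPM in IL-17C+KO lesional skin (SD, n = 2) and 330 ± 531 CPM in IL-17C+ lesional skin (SD, n = 3). The IL-17C+KO lesional libraries lay above the IL-17C+ ones, as did those of 11.8% of 15691 genes. The nearest were 979 CPM in mouse 2392 and 942 CPM in mouse 2296, and the edgeR FDR between the labels was 0.874.

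Saa1 had 75.4 and 16.4 CPM in IL-17C+KO lesional skin, against 1.21 and 0.844 CPM in uninvolved skin. Mice labelled IL-17C+ had 2.65, 2.68 and 43.7 CPM in lesional skin, against 3.09, 0.358 and 7.89 CPM in uninvolved skin (mice 2237, 2275 and 2296). The lesional and uninvolved groups of IL-17C+ mice overlapped, and mouse 2237 alone had no lesional excess (88 counts against 75). The fitted difference was 5.13 ± 0.91 log2 units in IL-17C+KO mice (edgeR FDR 0.193), 1.69 ± 0.70 in IL-17C+ mice (edgeR FDR 0.771) and 3.10 ± 0.89 over all 5 mice (edgeR FDR 0.129). Without mouse 2237, where 7.84% of all genes passed, the last value was 3.91 with an edgeR FDR of 0.037.

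Saa2 had 64.9 and 3.08 CPM in IL-17C+KO lesional skin, against 0.313 and 0.307 CPM in uninvolved skin. In IL-17C+ mice it had 1.63, 1.83 and 29.7 CPM in lesional skin, against 0.701, 0.159 and 6.36 CPM in uninvolved skin. It was higher in lesional skin within each mouse, but the uninvolved level of mouse 2296 exceeded the lesional levels of mice 2465, 2237 and 2275. The uninvolved counts were few, at 7 and 8 in IL-17C+KO mice, so the ratio of 228.7 in mouse 2392 has a counting interval of 110.8 to 569.8. The fitted difference was 5.62 ± 1.19 log2 units in IL-17C+KO mice (edgeR FDR 0.213), 2.19 ± 0.79 in IL-17C+ mice (edgeR FDR 0.752) and 3.31 ± 0.89 over all 5 mice (edgeR FDR 0.118). Without mouse 2392 the IL-17C+KO difference was 3.30.

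**Figure D2:**
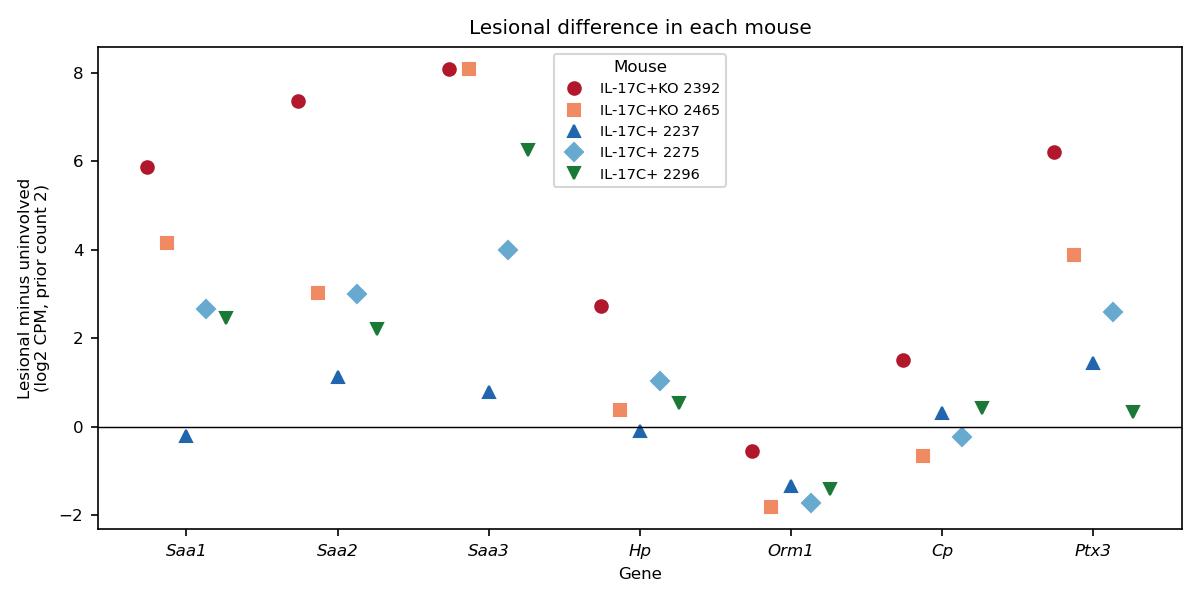
Difference in log2 CPM (prior count 2) between the lesional and uninvolved biopsy of each mouse for each gene. Saa3 reaches 8.08 and 8.09 in both mice labelled IL-17C+KO, all 5 Orm1 points lie below 0, and Cp points lie on both sides of 0.

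The 3 serum amyloid A promoters and that of Ptx3 are shown because these 4 genes were the ones with lesional excesses at an unadjusted p under 0.05. RefSeq windows (GRCm38.p6, 250 bases before to 50 after the start) were matched for 5 of the 7 genes, leaving Hp and Orm1 without one. Both strands were searched for 3 short motifs: TTNNGNAA for C/EBP, GGGA and CC with any 4 bases between them for NF-κB, and TTCNNNGAA for STAT. The windows are Saa1 at chr7:46742931-46743230 (minus strand), Saa2 at chr7:46751583-46751882 (plus), Saa3 at chr7:46715627-46715926 (minus) and Ptx3 at chr3:66219637-66219936 (plus). They are written 5′ to 3′ in the direction of the gene, with motif matches in capitals.
Saa1 promoter: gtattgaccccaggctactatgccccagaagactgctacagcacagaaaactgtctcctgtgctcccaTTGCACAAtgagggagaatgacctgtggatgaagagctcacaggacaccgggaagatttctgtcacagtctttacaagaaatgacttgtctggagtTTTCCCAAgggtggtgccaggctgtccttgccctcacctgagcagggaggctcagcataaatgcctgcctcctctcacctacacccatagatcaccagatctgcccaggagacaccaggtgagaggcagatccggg
Saa2 promoter: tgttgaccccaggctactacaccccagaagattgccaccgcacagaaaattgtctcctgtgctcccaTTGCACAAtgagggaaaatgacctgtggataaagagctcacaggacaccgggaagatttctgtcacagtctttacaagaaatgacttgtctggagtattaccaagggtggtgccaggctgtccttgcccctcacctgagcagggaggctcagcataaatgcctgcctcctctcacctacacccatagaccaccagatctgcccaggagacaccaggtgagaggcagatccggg
Saa3 promoter: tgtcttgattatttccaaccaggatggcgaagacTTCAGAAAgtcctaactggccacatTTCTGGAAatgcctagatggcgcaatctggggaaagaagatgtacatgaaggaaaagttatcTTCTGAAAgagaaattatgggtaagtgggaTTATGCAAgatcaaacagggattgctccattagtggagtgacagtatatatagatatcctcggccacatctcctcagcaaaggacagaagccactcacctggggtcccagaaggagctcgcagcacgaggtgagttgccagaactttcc
Ptx3 promoter: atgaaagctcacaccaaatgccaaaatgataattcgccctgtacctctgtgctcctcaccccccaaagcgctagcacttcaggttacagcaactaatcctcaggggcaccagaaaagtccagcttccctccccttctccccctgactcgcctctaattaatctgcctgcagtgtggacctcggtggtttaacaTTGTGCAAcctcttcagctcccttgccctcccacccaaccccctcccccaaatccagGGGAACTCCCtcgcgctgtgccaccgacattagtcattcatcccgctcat

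In Saa1 the C/EBP motif was matched at positions -182 to -175 and -86 to -79 from the start, and in Saa2 at -183 to -176. The bases TTGCACAA are common to the upstream match of both. Saa3 had 4 C/EBP matches, at -216, -191, -129 and -99. Ptx3 had 1 C/EBP match at -57 to -50 and 1 NF-κB match (GGGAACTCCC) that begins at the start base and reads on both strands. The iron-handling gene Cp has a pair of RefSeq windows, with 1 C/EBP match in each and 1 NF-κB match in the downstream one. No STAT match was found in any of these windows. The C/EBP motif was present in 40.7% of all 32851 windows, the NF-κB motif in 20.7% and the STAT motif in 8.3%, and a match of letters shows no binding. The Saa1 and Saa2 windows were 96.0% identical, while Saa3 was 65.1% identical to Saa1 and 62.8% to Saa2.

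The near-identity extends to the transcripts, which bears on how reads are assigned. Saa1 and Saa2 transcripts were 94.4% identical, and 13.2% of the 50-base stretches of Saa1 were also present in Saa2. For Saa1 and Saa3 these values were 76.3% and 1.61%. The sources used here do not say how reads that map to several genes were counted, so the split between Saa1 and Saa2 is uncertain, whereas that between Saa3 and both is less so. Saa1 made up 53.8% and 84.2% of the summed Saa1 and Saa2 counts in IL-17C+KO lesional skin, against 79.4% and 73.3% in uninvolved skin. Among IL-17C+ mice Saa1 made up 62.0%, 59.5% and 59.5% in lesional skin, against 81.5%, 69.2% and 55.4% in uninvolved skin. The exact 95% counting intervals were 52.1 to 55.4% and 80.5 to 87.5% in the lesional libraries of mice 2392 and 2465, and they cover neither the spread between mice nor the assignment of shared reads.

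Per transcript length, Saa3 was the most abundant of the 3. On the deposited FPKM scale it was 2711 and 3506 in IL-17C+KO lesional skin, against 8.59 and 11.3 in uninvolved skin. In IL-17C+ mice it was 60.7, 72.8 and 2406 FPKM in lesional skin, against 30.6, 3.90 and 31.6 FPKM in uninvolved skin. Saa3 supplied 89.6% and 98.8% of the summed Saa1, Saa2 and Saa3 FPKM in IL-17C+KO lesional skin and 74.1% and 82.9% in uninvolved skin. Among IL-17C+ mice Saa3 supplied 85.9%, 87.4% and 94.1% in lesional skin and 79.8%, 78.3% and 51.5% in uninvolved skin. By FPKM it ranked 24, 16 and 55 among all genes in lesional skin of mice 2392, 2465 and 2296, 1581 and 1285 in that of mice 2237 and 2275, and between 2840 and 9778 in the 5 uninvolved libraries. Saa4, a further family member, had 2 to 22 counts per library.

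**Figure D3:**
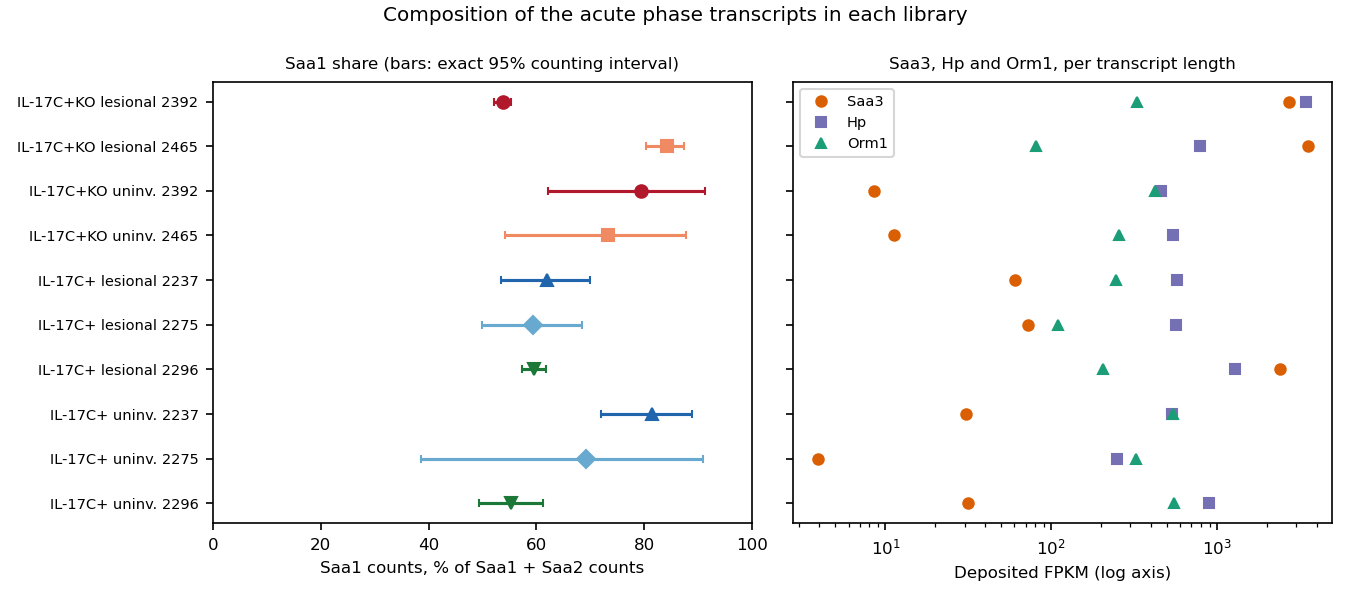
Left, the share of Saa1 in the summed Saa1 and Saa2 counts of each library with its exact 95% counting interval. Right, deposited FPKM (log axis) of Saa3, Hp and Orm1, where Saa3 exceeds Hp in lesional skin of mice 2465 and 2296 and lies below Hp and Orm1 in all 5 uninvolved libraries.

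Ptx3 (chr3:66219910-66225805, plus strand) had the smallest p of the 7 genes in the mice labelled IL-17C+KO. It had 165 and 34.8 CPM in their lesional skin, against 2.15 and 2.30 CPM in their uninvolved skin. The IL-17C+ mice had 1.26, 4.28 and 1.45 CPM in lesional skin, against 0.413, 0.637 and 1.13 CPM in uninvolved skin. In IL-17C+ mice the lowest lesional level, 1.26 CPM, lay close to the highest uninvolved one, 1.13 CPM. The IL-17C+ lesional levels of mice 2237 and 2296 lay below the IL-17C+KO uninvolved ones. Counts were 4385 against 48 in mouse 2392 and 781 against 60 in mouse 2465, against at most 110 in any IL-17C+ library. The fitted difference was 5.09 ± 0.82 log2 units in IL-17C+KO mice (edgeR FDR 0.189), 1.57 ± 0.64 in IL-17C+ mice (edgeR FDR 0.771) and 3.08 ± 0.88 over all 5 mice (edgeR FDR 0.127). The gene span of Veph1 overlaps that of Ptx3 on the opposite strand. Overlap of exons was not examined and the strand setting of the counting is not given, so whether the pair shares reads is not known.

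Hp (chr8:109575128-109579172, minus strand), whose product carries free haemoglobin to the macrophage receptor Cd163, was abundant in all 10 libraries. It had 4301 and 974 CPM in IL-17C+KO lesional skin, against 651 and 752 CPM in uninvolved skin. In IL-17C+ mice it had 690, 688 and 1739 CPM in lesional skin, against 734, 334 and 1206 CPM in uninvolved skin. The lesional level of mouse 2392 was the highest, and the IL-17C+ groups overlapped. The fitted difference was 1.55 ± 0.67 log2 units in IL-17C+KO mice (edgeR FDR 0.382), 0.50 ± 0.50 in IL-17C+ mice (edgeR FDR 0.862) and 0.88 ± 0.41 over all 5 mice (edgeR FDR 0.272). Without mouse 2392 the IL-17C+KO difference was 0.37. By FPKM, Hp ranked between 15 and 384 among all genes in every library.

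Cp (chr3:19957054-20009145, plus strand) showed no common lesional direction. It had 201 and 59.2 CPM in IL-17C+KO lesional skin, against 70.8 and 93.5 CPM in uninvolved skin, so that the 2 mice moved in opposite directions. Among IL-17C+ mice it had 48.7, 47.3 and 56.5 CPM in lesional skin, against 39.5, 55.2 and 41.9 CPM in uninvolved skin. The fitted difference was 0.42 ± 0.54 log2 units in IL-17C+KO mice (edgeR FDR 0.804), 0.17 ± 0.42 in IL-17C+ mice (edgeR FDR 0.935) and 0.26 ± 0.31 over all 5 mice (edgeR FDR 0.658). Without mouse 2392 it was -0.67 in IL-17C+KO mice and -0.04 over all mice. The gene span of Hps3 overlaps that of Cp on the opposite strand, with the same limit as for Ptx3.

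Orm1 (chr4:63344560-63348163, plus strand) was the only one of the 7 genes that was lower in lesional skin. It had 204 and 49.8 CPM in IL-17C+KO lesional skin, against 299 and 176 CPM in uninvolved skin. In IL-17C+ mice it had 147, 65.4 and 138 CPM in lesional skin, against 369, 216 and 367 CPM in uninvolved skin. The lesional level of mouse 2392 exceeded the uninvolved level of mouse 2465. The fitted difference was -1.19 ± 0.39 log2 units in IL-17C+KO mice (edgeR FDR 0.289), -1.49 ± 0.31 in IL-17C+ mice (edgeR FDR 0.620) and -1.37 ± 0.22 over all 5 mice (edgeR FDR 0.066). Without mouse 2237, where 7.84% of all genes passed, the last value was -1.38 with an edgeR FDR of 0.0318, and without any other single mouse the FDR was 0.153 to 0.209.

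The paralogues Orm2 and Orm3 were lower in lesional skin of the same 5 mice. Orm2 had 18.9 and 5.57 CPM in IL-17C+KO lesional skin, against 28.2 and 18.7 CPM in uninvolved skin, and 14.8, 6.88 and 14.2 CPM in IL-17C+ lesional skin, against 37.0, 24.9 and 36.6 CPM in uninvolved skin. Its fitted difference over all 5 mice was -1.37 ± 0.22 log2 units (edgeR FDR 0.066), and that of Orm3 was -1.35 ± 0.32 (edgeR FDR 0.104). Orm1 and Orm2 transcripts were 91.0% identical with 20.4% of 50-base stretches in common, so their counts may share reads and are not independent. Orm1 and Orm3 shared 2.2% of such stretches.

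The comparison of genotype labels asks whether the lesional difference itself depended on the label. For Saa1, Saa2, Saa3 and Ptx3 the differences of both IL-17C+KO mice exceeded those of all 3 IL-17C+ mice, a pattern shown by 5.45% of all genes. The difference of differences was 3.45 ± 1.08 log2 units for Saa1, 3.43 ± 1.38 for Saa2, 4.32 ± 1.56 for Saa3 and 3.52 ± 0.98 for Ptx3 (SE). It was 1.06 ± 0.83 for Hp, 0.30 ± 0.49 for Orm1 and 0.25 ± 0.68 for Cp. Saa1, Saa2, Saa3 and Ptx3 had an unadjusted p under 0.05, as had 0.572% of all genes in that direction and 0.597% in the other. After adjustment the edgeR FDR was 1 for all 7, and 0% of 16083 genes passed. Without mouse 2392 none of the 7 had an unadjusted p under 0.05.

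Lesional skin was then compared directly between the labels, with 2 IL-17C+KO against 3 IL-17C+ libraries. Ptx3 was 5.45 ± 0.89 log2 units higher in IL-17C+KO lesional skin (165 and 34.8 CPM, against 1.26, 4.28 and 1.45 CPM), with an unadjusted p of 0.00119 and an edgeR FDR of 0.50. DESeq2 called it (5.43, adjusted p = 5.8e-09), as it did 1.47% of genes with an adjusted p. Cp was 1.38 ± 0.49 log2 units higher (edgeR FDR 0.622), although without mouse 2392 the value was 0.25. Saa3, Cp and Ptx3 were the 3 of 7 genes whose IL-17C+KO libraries all lay above the IL-17C+ ones, as did those of 11.8% of 15691 genes. At an unadjusted p under 0.05, 4.77% of genes were higher, Ptx3 and Cp among them, and 2.53% were lower, none of the 7 among them. At the FDR 0% passed. Saa1, Saa2, Saa3 and Hp differed by 1.52 ± 1.39, 1.65 ± 1.65, 1.80 ± 1.64 and 1.37 ± 0.73 log2 units, and Orm1 by 0.14 ± 0.64. For Saa3 the value was 5.58 without mouse 2296, the IL-17C+ mouse with 942 CPM, with an edgeR FDR of 0.208.

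In uninvolved skin the label groups differed in another order. Ptx3 had 2.15 and 2.30 CPM in IL-17C+KO skin, against 0.413, 0.637 and 1.13 CPM in IL-17C+ skin (1.63 ± 0.54 log2 units, edgeR FDR 0.849). Cp had 70.8 and 93.5 CPM in IL-17C+KO skin, against 39.5, 55.2 and 41.9 CPM in IL-17C+ skin (0.86 ± 0.29 log2 units, edgeR FDR 0.849). These 2 genes did not overlap between the labels, as was so with higher IL-17C+KO values for 10.5% of the 15568 genes tested. Both had an unadjusted p under 0.05, as had 1.91% of genes in that direction and 1.82% in the other, and 0% passed the FDR. The other 5 had negative differences, from -2.91 ± 1.48 for Saa2 to -0.10 for Hp, with overlapping groups. Differences between the labels were also seen for markers of several cell types. The summed macrophage, fibroblast and anagen hair follicle levels overlapped between the labels in both skin types. Of the 14 macrophage markers, 14 had positive differences in lesional skin and 13 in uninvolved skin, and of the 12 fibroblast markers 12 and 8 did. The 15 anagen hair follicle markers all had negative differences in both skin types, with a median of -2.26 log2 units in lesional and -6.50 in uninvolved skin. All 12 endothelial markers had positive differences in both skin types. The summed endothelial level was 671 to 713 CPM in IL-17C+KO lesional skin, against 245 to 379 CPM in IL-17C+ lesional skin, and 505 to 586 CPM against 164 to 416 CPM in uninvolved skin. The part of these cell types in the results on Ptx3 and Cp was not tested, and age cannot be told apart from the label.

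Other acute phase genes gave a mixed picture. Of 33 further positive acute phase genes in the tables, 27 had enough counts to be tested. Over all 5 mice 20 had positive and 7 negative lesional differences, with a median of 0.18 log2 units. At an unadjusted p under 0.05 there were 7 higher and 3 lower, against 10.1% and 11.5% of all genes, and none passed the FDR. Among those with the smallest p were Orm2, the siderophore-binding lipocalin Lcn2 (2.40 ± 0.42) and the endotoxin co-receptor Cd14 (2.39 ± 0.51), with edgeR FDR values of 0.066, 0.069 and 0.090. In IL-17C+KO mice Tnfaip6, which binds pentraxin 3 in the matrix, led with 2.59 ± 0.35 (edgeR FDR 0.169), and the haem carrier Hpx had 7.38 ± 1.19 (edgeR FDR 0.189) on uninvolved levels near 0. Tnfaip6 was also 2.55 ± 0.23 log2 units higher in IL-17C+KO than in IL-17C+ lesional skin (120 and 110 CPM, against 16.5, 18.0 and 25.3 CPM, edgeR FDR 0.435).

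**Figure D4:**
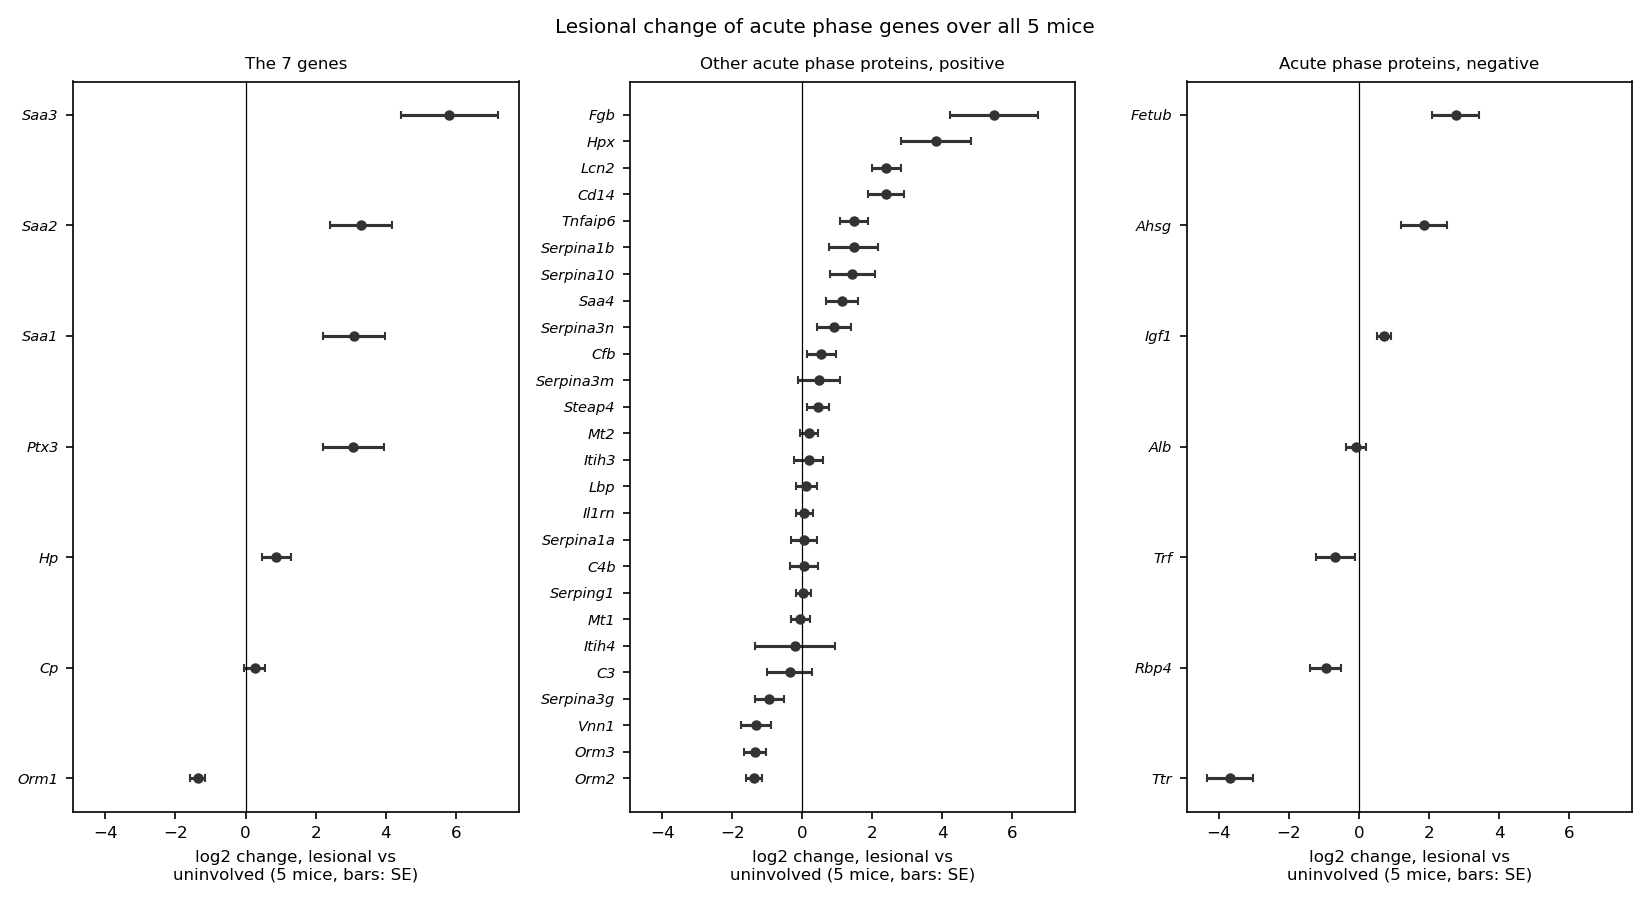
Fitted log2 difference of lesional against uninvolved skin over all 5 mice, with its SE, for the 7 genes and for the tested genes reported here of the further positive and the negative acute phase lists. Saa3 at 5.82 is the highest of the 7 and Orm1 at -1.37 the lowest, next to Orm2 at -1.37 and Orm3 at -1.35 on the second list.

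Most genes on the hepatocyte marker list had few counts, with a pair of exceptions. Acute phase genes outside that list had mean levels from 0 to 1207 CPM (Hp), with C3 at 541 and Igf1 at 50.1 CPM. The 18 hepatocyte markers summed to 141 to 804 CPM in IL-17C+KO lesional skin, against 749.6 to 1186 CPM in uninvolved skin, and to 348 to 453 CPM in IL-17C+ lesional skin, against 456 to 1348 CPM in uninvolved skin. Trf, which encodes transferrin, averaged 385 CPM over the 10 libraries and the cytochrome Cyp2e1 averaged 294 CPM, whereas the highest of the other 16, albumin (Alb), averaged 6.34 CPM. Apcs, the serum amyloid P gene, had 0 counts in all 10 libraries. The fibrinogen genes Fga, Fgb and Fgg had 0 counts in 6, 8 and 9 libraries and the liver regulator Hnf4a in 7, and Alb had 73 to 356 counts. Of 11 genes known as negative acute phase proteins, 7 were tested, with 3 positive and 4 negative differences over all 5 mice and a median of -0.09. Ttr (-3.68 ± 0.66, edgeR FDR 0.072), Fetub (2.76 ± 0.67, edgeR FDR 0.106), Igf1 (0.72 ± 0.19, edgeR FDR 0.118) and Ahsg (1.86 ± 0.67, edgeR FDR 0.173) had the smallest p. Of these, Ttr and Ahsg had few counts, at 0 to 42 and 1 to 53 per library and means of 0.337 and 0.470 CPM. Fetub and Ahsg are known to fall in the hepatic response, and here they had higher lesional CPM in 4 of 5 and 5 of 5 mice.

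Among cytokines that induce these proteins and their receptors, Osm rose over all 5 mice. Oncostatin M is an IL-6 family cytokine that acts on hepatocytes and skin cells. It had 16.7 and 19.5 CPM in IL-17C+KO lesional skin, against 0.760 and 0.537 CPM in uninvolved skin, and 0.993, 3.31 and 16.0 CPM in IL-17C+ lesional skin, against 0.124, 0.0796 and 0.542 CPM in uninvolved skin. The difference was 4.66 ± 0.36 log2 units (edgeR FDR 0.0260), higher in 5 of 5 mice, and the FDR was 0.0945 to 0.153 without mouse 2275, 2296, 2392 or 2465. Of the 24 tested genes of this list 19 were positive, 7 of them at an unadjusted p under 0.05, and 1 passed. Among all genes 10.1% were higher at that level. Next came Il6 (2.195 ± 0.35, edgeR FDR 0.066), Il1b (4.20 ± 0.78, edgeR FDR 0.072) and the TNF receptor Tnfrsf1b (0.82 ± 0.26, edgeR FDR 0.144). In IL-17C+KO mice Il1r1, the receptor of IL-1, had 1.64 ± 0.29 (edgeR FDR 0.193).

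Of 16 tested transcription regulators 14 had positive lesional differences over all 5 mice, 4 at an unadjusted p under 0.05, and none passed. For this list and the next, the share of all genes at that level was 10.1% higher and 11.5% lower. Cebpb, a C/EBP factor of the acute phase response, had 0.64 ± 0.18 log2 units (edgeR FDR 0.127), the NF-κB partner Bcl3 had 1.01 ± 0.32 (edgeR FDR 0.145) and Socs3, the feedback inhibitor of STAT3 signalling, had 1.25 ± 0.40 (edgeR FDR 0.147). The nuclear receptor Esrrg had -2.49 ± 0.76 (edgeR FDR 0.140), but was not lower in lesional skin of mouse 2237 (1.17 against 1.07 CPM). Summed muscle markers also had no lesional deficit in that mouse, and the part of muscle in the Esrrg result was not tested. Of 30 tested receptors and partners of the 7 proteins 23 were positive, 8 of them at an unadjusted p under 0.05, and none passed. They were led by Selp, which encodes the P-selectin that pentraxin 3 binds (1.77 ± 0.28, edgeR FDR 0.066), the formyl peptide receptors Fpr2 (2.96 ± 0.48) and Fpr1 (4.53 ± 0.75), both with an edgeR FDR of 0.066, and Tlr2 (1.51 ± 0.30, edgeR FDR 0.080). Fpr2 and Tlr2 are known receptors of serum amyloid A.

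Markers of several cell types differed between lesional and uninvolved skin, though not in every mouse. The 16 neutrophil markers summed to 4692 and 6443 CPM in IL-17C+KO lesional skin, against 849 and 197 CPM in uninvolved skin. In IL-17C+ mice they summed to 2267, 2370 and 12958 CPM in lesional skin, against 2188, 202 and 2543 CPM in uninvolved skin. S100a8 and S100a9, which are also on the list of stress keratins and related genes, made up most of these sums in lesional skin. The other 14 summed to 447 and 592 CPM in IL-17C+KO lesional skin, against 128 and 147 CPM in uninvolved skin. In IL-17C+ mice they summed to 95.5, 135 and 699 CPM in lesional skin, against 115, 140 and 162 CPM in uninvolved skin. The sums of mice 2237 and 2275 had no lesional excess, although 10 and 11 of the 15 tested neutrophil markers were higher in their lesional skin. Il1r2, the most abundant of the 14, was lower there, at 35.1 and 35.7 CPM against 83.3 and 110.5 CPM. Of the 15 tested, 13 had positive differences over all 5 mice, 10 of them at an unadjusted p under 0.05. At that level 1 was lower, the decoy receptor Il1r2 (-0.72 ± 0.29, edgeR FDR 0.212). The shares of all genes were 10.1% higher and 11.5% lower. The 14 macrophage markers, with Lyz2 and C1qa among the most abundant, summed to 2302 and 1222 CPM in IL-17C+KO lesional skin, against 858 and 1280 CPM in uninvolved skin. In IL-17C+ mice they summed to 938, 754 and 1554 CPM in lesional skin, against 899.6, 809.8 and 675 CPM in uninvolved skin. Their lesional sum was thus lower in mice 2465 and 2275, and Lyz2 and C1qa were lower in lesional skin of mice 2465, 2237 and 2275. The 12 fibroblast markers, led by Col3a1, Col1a2 and Col1a1, summed higher in lesional skin of all 5 mice. In IL-17C+KO mice they summed to 9341 and 31556 CPM, against 3289 and 4670 CPM in uninvolved skin. In IL-17C+ mice they summed to 6359, 14148 and 8615 CPM, against 4684, 2928 and 3573 CPM in uninvolved skin. Of the 12, 12 and 10 were higher in lesional skin of mice 2392 and 2465, and 9, 11 and 11 in IL-17C+ mice. Fap was lower in lesional skin of every mouse except 2392. Stress keratins and related genes, led by Krt17, Krt6a and Krt16, were positive for 12 of 12 genes. Their part in the results on Saa1, Saa2, Saa3, Hp and Ptx3 was not tested.

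Adipocyte and muscle markers summed lower in lesional skin of 4 of 5 mice each. The 14 adipocyte markers, led by Cfd, Fabp4 and Lpl, summed to 7853 and 1122 CPM in IL-17C+KO lesional skin, against 5200 and 8353 CPM in uninvolved skin. In IL-17C+ mice they summed to 3561, 2992 and 3863 CPM in lesional skin, against 5874, 7436 and 5660 CPM in uninvolved skin. In mouse 2392 12 of the 14 were higher in lesional skin. All 14 had negative differences over all 5 mice, with 2 at an unadjusted p under 0.05, as had 11.5% of all genes in that direction. The 17 skeletal muscle markers, led by Acta1, Atp2a1 and Myh1, summed to 6025 and 1042 CPM in IL-17C+KO lesional skin, against 38474 and 61384 CPM in uninvolved skin. In IL-17C+ mice they summed to 8624, 5151 and 3731 CPM in lesional skin, against 8194, 43956 and 15901 CPM in uninvolved skin, so that mouse 2237 had no lesional deficit. Keratinocyte markers, led by Krt10, Krt1 and Krt14, were at 16343 to 35152 CPM in all libraries. Anagen hair follicle markers, led by Krt71, Tchh and Krt25, summed to 28.3 and 2588 CPM in IL-17C+KO lesional skin, against 58.2 and 43.7 CPM in uninvolved skin, and to 8316, 9496 and 1287 CPM in IL-17C+ lesional skin, against 11775, 35.2 and 2329 CPM in uninvolved skin. Sebaceous gland markers, led by Scd1, Plin2 and Elovl3, were at 1545 to 9026 CPM, and red blood cell markers, led by Alas2 and Slc4a1, at 6.60 to 14.0 CPM in all libraries. The part of these cell types in the Orm1 result was not tested.

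Across the 10 libraries the 7 genes did not vary as 1 block. On log2 CPM, Pearson's r was 0.963 between Saa1 and Saa2, 0.929 between Saa1 and Saa3, 0.845 between Saa2 and Saa3 and 0.773 to 0.925 between Hp and the 3 Saa genes. Cp and Ptx3 had an r of 0.759, and Orm1 had values of -0.515 to -0.002 with the other 6. These are descriptions over 10 libraries that share mice, skin type and depth, and Saa1 and Saa2 may share reads.

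Among 13445 genes with a mean of at least 2 CPM, the most similar patterns were named by r over the same libraries. For Saa3 they were Slc2a6 (0.987), Lilr4b (0.986), Akr1b8 (0.985), Pilra (0.982) and Sdcbp (0.981). For Saa1 they were Pnp2 (0.968), Saa2, Ghdc (0.958), Myd88 (0.954) and Arpc1b (0.948), and for Saa2 they included Saa1, Pnp2 (0.960), Ghdc (0.952) and Mtmr9 (0.927). Hp was closest to Ms4a6d (0.930), Saa2 (0.925), Serpina3n (0.921), Saa1 (0.916) and Cd38 (0.910). Orm1 was closest to Orm2 (0.996) and Orm3 (0.989), then to Spag1 (0.963) and the late cornified envelope genes Lce1i (0.952) and Lce1a1 (0.95). Cp was closest to Mndal (0.945), Adm (0.944), Fgf10 (0.936), Oas2 (0.935) and Tmem106a (0.931). Ptx3 was closest to Fes (0.953), Bin2 (0.95), the chemokine Ccl2 (0.948) and the basement membrane collagens Col4a1 (0.943) and Col4a2 (0.937).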

How the data were processed

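RNA from 10 skin biopsies was sequenced on an Illumina Genome Analyzer IIx, per the labels. Per the submitters' processing notes the tools were cutadapt 1.6, TopHat2 2.0.12, HTSeq and Cufflinks 2.2.1 with the mm10 build, with no settings or order named. Per the file headers, each deposited table holds a count and an FPKM value per gene symbol. The deposited counts are whole numbers with a different total per library and were used as raw reads. The deposited FPKM values, scaled to transcript length and depth by the authors, were used to compare levels between genes and in alternative tests.

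Groups and mouse numbers came from the labels. Counts were tested in R 4.3.3 with edgeR 4.0.16 (filterByExpr by group, TMM, robust quasi-likelihood F tests, Benjamini-Hochberg FDR of 0.05 over all genes tested). For lesional against uninvolved skin the fit held all 10 libraries and a term for each mouse, and for labels within 1 skin type it held 5 libraries without that term. A standard error is the change divided by the square root of F. Differences per mouse used log2 CPM with prior count 2. The replicate is the mouse.

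Pairing comes from the labels, which tie both biopsies to a mouse. The correlation between both biopsies of a mouse, each taken as its deviation from the group mean, was -0.082 for each IL-17C+KO mouse (with 2 mice it is 1 value) and -0.128, 0.031 and -0.086 for the IL-17C+ mice. No 2 libraries held identical values, and the highest correlation between libraries was 0.985.

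The 7 genes and all lists were chosen with earlier results of these data known. All 7 are named in each comparison. From other lists, genes with the smallest p (up to 4) and any past the FDR were named, and for each of the 7 the 5 genes with the highest r; some genes these rules name are not reported here. Alternatives were DESeq2 1.42.0, limma 3.58.1 (voom, or log2 of FPKM with 0.1 or 1 added), RLE scaling, no filter, fits without each mouse, without the block, or of 1 label alone. The 6 edgeR fits were tested on simulated counts with known changes. Coordinates are from GENCODE M21 (GRCm38), and sequences from RefSeq tables on GRCm38.p6, aligned with Biopython 1.88.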

Additional observations from a re-analysis of the deposited data

How the results depend on the processing

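Counts of genes past the FDR depended on tool and mice. For lesional against uninvolved skin of IL-17C+KO mice 2 genes passed, against 5 with no filter on low counts, 1140 by DESeq2 and 1 by limma on FPKM + 1. The number was 0 without the replicate block, 0 with only the libraries of that label, and 0 to 11 with single IL-17C+ mice left out. In IL-17C+ mice 0 passed, against 247 by DESeq2. Over all 5 mice 8 passed, against 15 with no filter, 2036 by DESeq2, 4 by limma-voom, 15 by limma on FPKM + 0.1, 891 without the replicate block, 1249 without mouse 2237 and 0 without each other mouse. For the difference of differences DESeq2 called 6 genes against 0. Between labels, 0 passed in lesional skin, against 1 with no filter and 217 by DESeq2. In uninvolved skin 0 passed, against 11 by DESeq2 and 0 to 241 with single mice left out (241 without mouse 2275). With FPKM + 0.1 the median of all genes was 0.12 log2 units over all 5 mice, against -0.006, and 0.17 in IL-17C+KO mice, against 0.002 (0.11 with FPKM + 1), so that FPKM-based changes are relative to that shift.

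Some signs turned with single mice left out, the negative values below being those without mouse 2392 unless another is named. Cp ranged from -0.67 to 1.51 in IL-17C+KO mice and from -0.039 to 0.499 over all 5 mice. In the difference of differences Hp ranged from -0.13 to 2.23, Orm1 from -0.34 to 0.93 and Cp from -0.84 to 1.34. Between labels in lesional skin Saa2 ranged from -1.80 to 4.29, Hp from -0.057 to 2.05 and Orm1 from -1.19 to 0.80 (-0.14 without mouse 2275). Uninvolved Hp ranged from -0.46 without mouse 2275 to 0.38 without mouse 2296. Lesional Orm1 between labels was also negative by limma-voom (-0.098), limma on FPKM + 0.1 (-0.12) and + 1 (-0.12), and uninvolved Hp positive by limma-voom (0.066), limma on FPKM + 0.1 (0.020) and + 1 (0.019). None of these values passed the FDR. Osm over all 5 mice lost its call with limma on FPKM + 1 (2.17). In uninvolved skin Saa2 gave no value without mouse 2237 or 2296, where it failed the filter. The causes were not tested. Over all 528 values of the 7 genes and Osm under an alternative, 491 kept direction and side of the threshold, 16 passed it where the reported value did not, 5 no longer passed and 16 changed sign.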
